A study of Mus musculus with 2 samples.

Results

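CTCF binding was mapped around 10 genes that a T cell precursor needs to build and read out its antigen receptor: Cd4, Cd8a, Cd8b1, Cd3e, Cd3d, Cd3g, Il7r, Ptcra, Rag1 and Rag2. They lie at 6 loci, since Cd8a and Cd8b1, the 3 Cd3 genes, and Rag1 and Rag2 are neighbours. A CTCF region was a run of touching 25-bp bins in the deposited peak track (mm9 positions), and it belonged to a locus when its centre lay inside the gene span or within 150 kb of it. This gave 116 regions of the 53551 in the whole track. Membership of a region rested on position alone and used no measured value, but the genes were chosen with earlier results of these data known.

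The chromatin came from CD4-CD8- (double-negative, DN) thymocytes of Rag1-/- C57BL/6 mice, 4 to 8 weeks old. The labels describe 2 libraries, 1 precipitated with an antibody against CTCF and 1 input control, and both share the Rag1-/- genotype. The input library was not analysed here, so there was no replicate and no control value at any locus, and no test between conditions was possible. The labels do not say which Rag1 allele was used or how many animals were pooled. The track holds positions without height or score, so the read depth behind a region is unknown, a region is present or absent, and its width is the one measure of its size. No expression was measured, so the markers of the labelled cell type could not be checked.

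CTCF is a zinc-finger protein that halts the loop-extruding cohesin complex, and its sites mark many loop ends and insulators. RAG1 and RAG2 form the recombinase that cuts antigen receptor genes, and thymocytes without RAG1 stop at the DN stage before a T cell receptor beta chain can be made. In normal development a DN cell receives survival signals through the IL-7 receptor, pairs its beta chain with the pre-T alpha chain and the CD3 subunits, and only later turns on CD4 and CD8. In the DN cells studied here the genes of all these steps are thus present side by side, some known to be active at this stage and some known to be silent.

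The DNA of the regions themselves is not shown, because no mm9 sequence was used. The promoters of 8 of the 10 genes were found in the RefSeq table of build GRCm38.p6, each running from 250 bases before the transcription start to 50 after it. They were searched on both strands for the core of the CTCF consensus motif, 12 letters long. None of the 8 held it exactly, against 0.557% of the 32851 promoters in the table, and none held it with 1 mismatch, against 4.33%. With 2 mismatches allowed 2 of the 8 matched, Cd3g and Rag2, against 29.8% of all promoters. Those 2 promoters are shown as the stretches that come nearest to the CTCF core, 5′ to 3′ on the gene's own strand, with the closest match in capitals. Cd3g, a subunit of the CD3 signalling complex, has its promoter at chr9:44980382-44980681 (GRCm38.p6) on the minus strand, and its match reads in the direction of the gene. Rag2, the partner of RAG1 in the recombinase, has it at chr2:101624462-101624761 (GRCm38.p6) on the plus strand, and its match lies on the opposite strand.
Cd3g: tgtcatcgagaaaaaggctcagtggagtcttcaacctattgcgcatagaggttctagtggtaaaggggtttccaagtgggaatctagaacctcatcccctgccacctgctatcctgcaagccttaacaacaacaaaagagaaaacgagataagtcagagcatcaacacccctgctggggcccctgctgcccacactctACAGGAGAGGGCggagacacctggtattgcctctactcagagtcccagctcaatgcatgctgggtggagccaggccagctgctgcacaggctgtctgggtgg
Rag2: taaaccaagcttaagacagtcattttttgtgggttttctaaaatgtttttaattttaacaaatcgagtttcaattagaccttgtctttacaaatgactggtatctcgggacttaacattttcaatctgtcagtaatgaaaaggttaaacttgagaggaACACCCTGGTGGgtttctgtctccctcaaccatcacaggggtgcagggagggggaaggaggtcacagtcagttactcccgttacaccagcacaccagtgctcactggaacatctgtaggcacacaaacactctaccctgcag
Each match is a description of letters and not a binding site. Whether a CTCF region covers either promoter was not analysed here, because the track follows mm9 and the promoter table GRCm38.

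Together the 6 loci were rich in CTCF regions. Their windows spanned 2.04 Mb and held 56.9 regions per Mb, with an exact Poisson 95% interval of 47.0 to 68.2. The rest of chromosomes 1 to 19 held 21.7 per Mb. The ratio was 2.62 (95% interval 2.17 to 3.15). All intervals here cover counting error only, and because regions cluster the true error is larger. The covered length moved the same way, with 42.7 kb or 2.09% of the windows inside a region, against 0.836% of the other autosomal sequence. The excess was not even. Cd4, the Cd3 genes and Ptcra stood well above the rest of the autosomes, Rag1 and Rag2 were intermediate, and the intervals of the Cd8 genes and Il7r included the autosomal density.

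**Figure D1:**
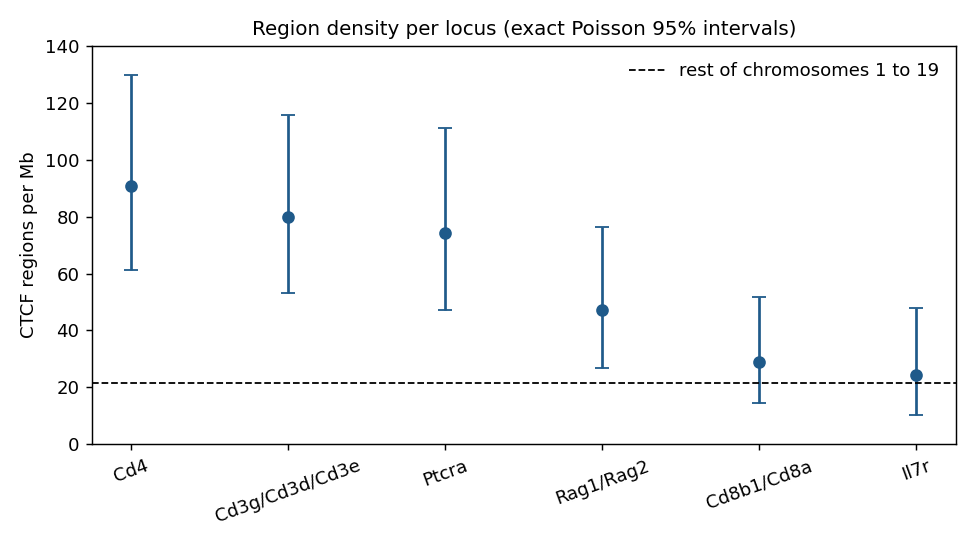
CTCF regions per Mb in the window of each locus (points), with exact Poisson 95% intervals (bars) and the density of the rest of chromosomes 1 to 19 (dashed line, 21.7 per Mb). The intervals of Cd4, the Cd3 genes, Ptcra and Rag1/Rag2 lie above the line, and those of Cd8b1/Cd8a and Il7r cross it.

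In order of density, Cd4 held 90.9 regions per Mb (exact Poisson 95% interval 61.3 to 130), the Cd3 genes 80.0 (53.2 to 116) and Ptcra 74.2 (47.0 to 111). Rag1 and Rag2 followed with 47.1 (26.9 to 76.4), then the Cd8 genes with 28.9 (14.5 to 51.8) and Il7r with 24.2 (10.5 to 47.8). No locus differed from the next in this order beyond its counting interval, the 5 ratios of neighbours running from 1.08 to 1.63 with intervals that all included 1. Across all 15 pairs, 7 had a 95% interval of the ratio above 1, without adjustment for the number of pairs. These set Cd4 above Rag1/Rag2, the Cd8 genes and Il7r, and the Cd3 genes and Ptcra above the Cd8 genes and Il7r. Most of these calls depended on how regions were joined, an alternative chosen for the pairs after their values were seen. With regions joined within 200 bp 5 of the 7 were left, without Cd4 over Rag1/Rag2 (1.65-fold, 0.830 to 3.38) and Ptcra over the Cd8 genes (2.12-fold, 0.958 to 4.92). Joined within 1000 bp, 3 were left, those of Cd4, the Cd3 genes and Ptcra over Il7r, and the ratio of Cd4 to Ptcra was 0.989 (0.501 to 1.96). The widest contrast was Cd4 against Il7r, 3.75-fold (1.68 to 9.47) and 2.86-fold (1.16 to 8.00) when joined within 1000 bp. Between the 2 coreceptor loci, which lie on the same chromosome, Cd4 exceeded the Cd8 genes 3.14-fold (1.53 to 6.95), and 2.09-fold (0.956 to 4.84) with regions joined within 1000 bp.

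The loci also differ in how many other genes surround them. By the GRCm38 gene table, 19 other protein-coding genes lie within 150 kb of Cd4, 16 of Ptcra, 8 of the Cd3 genes, 6 of the Cd8 genes, and 3 each of Rag1/Rag2 and Il7r. The part of gene crowding in the order of densities was not tested.

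Because regions are unevenly spread, each locus was also set beside the autosomes cut into adjoining windows of its own length. The Cd4 window of 330 kb held 30 regions where the median window held 5, and 1.34% of windows held at least as many. For the Cd3 genes (28 regions) the share of such windows was 2.46%, and for Ptcra (23 regions) it was 3.89%. Rag1 and Rag2 (16 regions) were matched or exceeded by 14.1% of windows. The Cd8 genes (11 regions, median window 6) were matched or exceeded by 31.4% of windows and Il7r (8 regions, median 5) by 38.2%. All 6 loci therefore lay above the median window, but only the first 3 were in the top 5% of the autosomes.

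**Figure D2:**
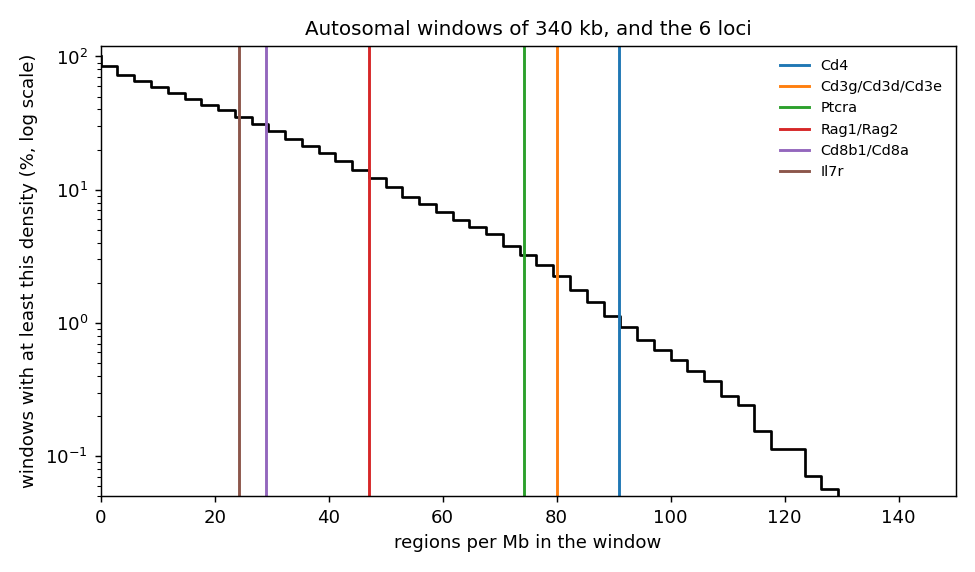
Share of autosomal 340-kb windows (vertical axis, log scale) that hold at least a given density of CTCF regions (horizontal axis, regions per Mb), with the 6 loci as coloured lines. Cd4, the Cd3 genes and Ptcra sit in the sparse tail of the curve, and Cd8b1/Cd8a and Il7r in its body.

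The width of regions near these genes stayed close to that elsewhere. Widths ran from 25 to 1125 bp with a median of 363 bp (362.5), against 425 bp over the rest of the autosomes. Of the 116 regions, 47 were 500 bp or wider. That was 40.5% (exact binomial 95% interval 31.5 to 50.03%), against 46.8% of all autosomal regions. Regions of 100 bp or less numbered 23, or 19.8% (13.0 to 28.3%), against 22.4%. In 28 regions (24.1%, 16.7 to 33.0%) another region lay within 200 bp, against 20.8%. Each of the 3 intervals included the autosomal share, though an interval of this breadth cannot establish equality. A single region, at Cd4, exceeded 700 bp, as did 3.4% of all autosomal regions.

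Neighbouring sites lay closer together at the crowded loci, which follows from their higher counts in windows of similar length. The 110 gaps between neighbours inside the windows had a median of 8.85 kb, against 14.4 kb for all autosomal gaps. The measures are not alike, because gaps that crossed a window edge were left out at the loci. By locus the median gap was 3.70 kb at Cd4, 4.98 kb (4.975) at the Cd3 genes, 9.21 kb at Ptcra and 11.8 kb at Rag1/Rag2. At the Cd8 genes it was 24.3 kb and at Il7r 30.5 kb. Joining regions up to 1000 bp apart left 20 of 30 at Cd4, 20 of 28 at the Cd3 genes and 19 of 23 at Ptcra. The same joining left 14 of 16 at Rag1/Rag2, 11 of 11 at the Cd8 genes and 7 of 8 at Il7r.

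**Figure D3:**
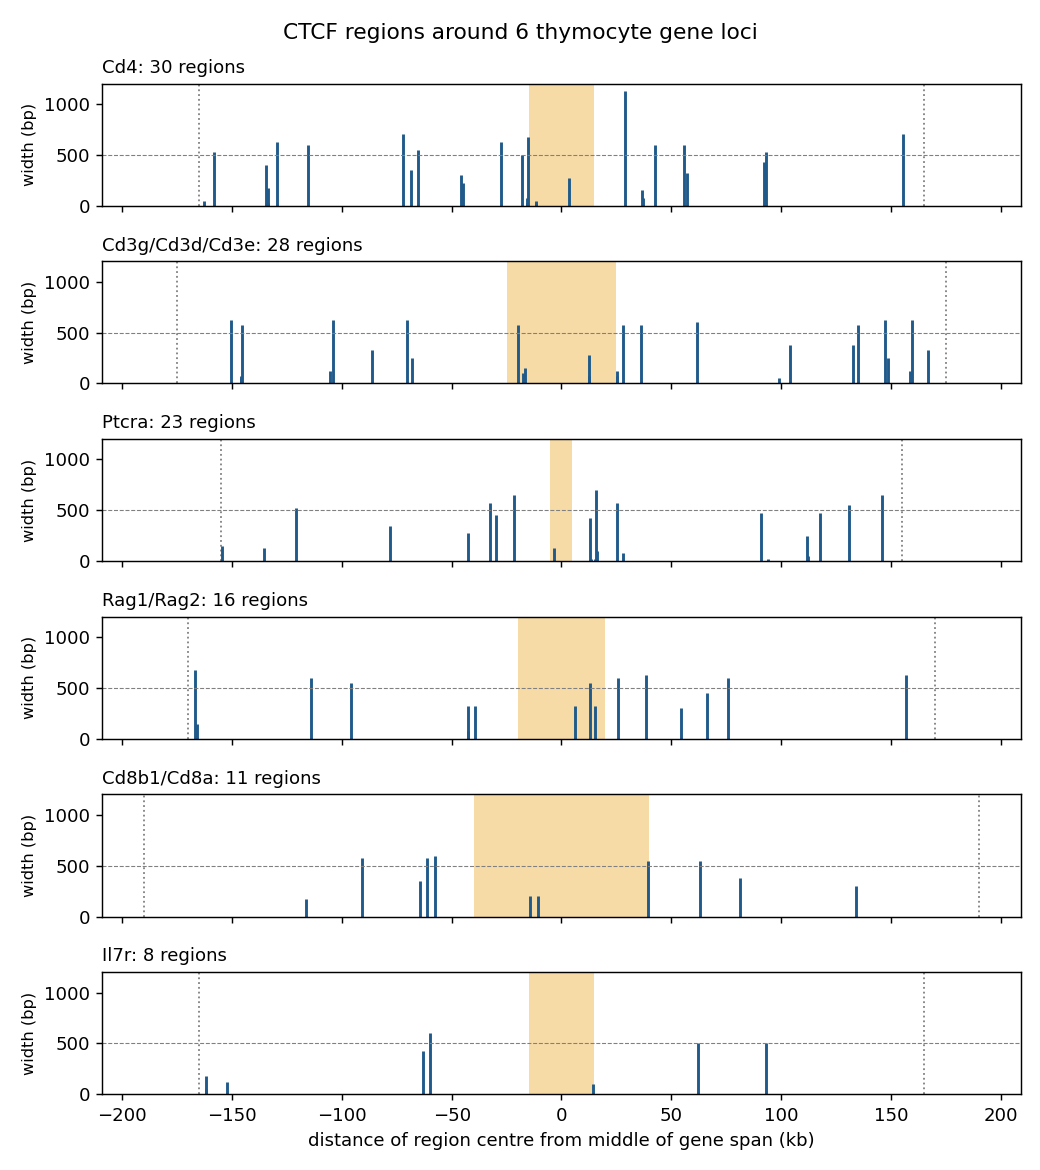
CTCF regions of each locus as vertical lines at their distance from the middle of the gene span (horizontal axis, kb), with the height of the line giving the region's width (bp). Orange marks the gene span, dotted lines the ends of the window and the dashed line 500 bp. Wide regions flank all 6 spans, and 3 of the 16 regions inside a span reach 500 bp.

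The gene spans themselves carried 16 regions, most of them narrower than 500 bp. Every span held at least 1, with 5 at the Cd3 genes, 3 each at Cd4, the Cd8 genes and Rag1/Rag2, and 1 each at Il7r and Ptcra. Their density of 66.7 per Mb (exact Poisson 95% interval 38.1 to 108) did not differ from the 55.6 per Mb (45.2 to 67.6) of the flanks beyond counting error (ratio 1.20, 0.661 to 2.05). Only 3 of the 16 (18.8%, exact binomial 95% interval 4.05 to 45.6%) were 500 bp or wider, against 44 of 100 in the flanks (34.1 to 54.3%). These intervals overlapped. The share over all autosomal regions, 46.8%, lay just above the first interval, which rests on 16 regions. Most were not narrow either, since 11 of the 16 were left without regions of 100 bp or less. The rule gives the spans to 10 kb and they were not checked against mm9 gene ends, so they can reach beyond the genes. A region inside a span therefore need not lie in a named gene.

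Outside the spans, regions were most frequent close by. The first 50 kb on both sides of the 6 spans held 47 regions, or 78.3 per Mb (57.6 to 104). The stretch from 50 to 100 kb held 20, or 33.3 per Mb (20.4 to 51.5), and that from 100 to 150 kb held 33, or 55.0 per Mb (37.9 to 77.2). The inner interval lay above the middle one when every fragment was counted singly, but density did not fall steadily with distance. Several inner regions, at the Cd4 edge and above Ptcra among them, lay within 200 bp of another. The bands were not recomputed with such regions joined, so the separation of the intervals may depend on them. Cd4 with 14 and Ptcra with 11 supplied 25 of the 47 inner regions. At Il7r the innermost band held 3 regions and the outermost 3. At the Cd3 genes the outermost band held 11 regions and the innermost 7.

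**Figure D4:**
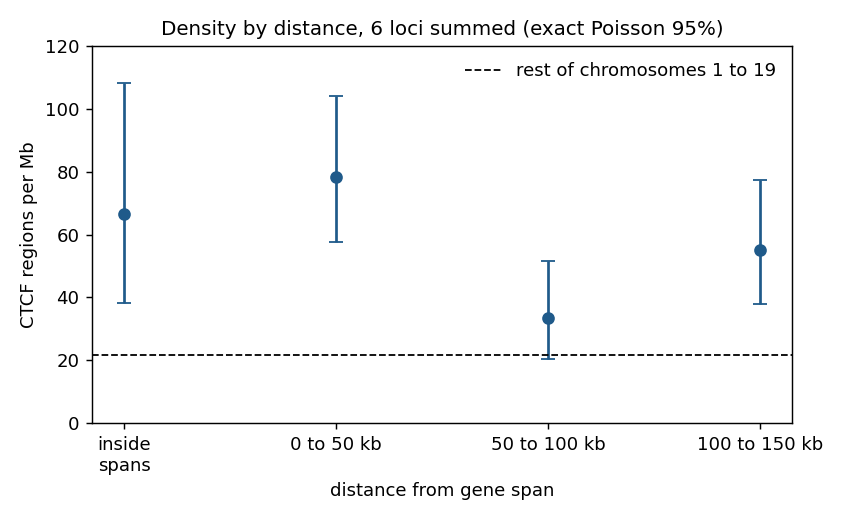
CTCF regions per Mb inside the gene spans and in 3 bands of distance from them, summed over the 6 loci, with exact Poisson 95% intervals and the density of the rest of chromosomes 1 to 19 (dashed line). The band within 50 kb is at 78.3 per Mb and the band from 50 to 100 kb at 33.3 per Mb.

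Cd4 encodes the coreceptor of helper T cells, which binds MHC class II, and its silencer in an intron of the gene is known to keep it off in DN cells. In the gene table it lies between Gpr162 and Lag3, which encodes an inhibitory receptor related to CD4. The span, at 124.81 to 124.84 Mb of chromosome 6, held 3 regions of 275 bp or less. A wide region lay at its lower edge, and the nearest wide one above stood 14.0 kb beyond its upper edge. Inside lay 2 slivers of 25 and 50 bp (124813246 to 124813270 and 124813421 to 124813470), 150 bp apart, and a region of 275 bp (124828146 to 124828420). At the lower edge a region of 675 bp (124809571 to 124810245) straddled the limit of the span, with its centre 0.0925 kb outside. It was preceded directly by 3 fragments of 25, 75 and 25 bp, so that this edge carried a broken run of 4. Beyond the other edge the first region, 14.0 kb away, was the widest of all 116, at 1125 bp (124853421 to 124854545). The stretch of 25000 bp between the 275-bp region and this wide one was the longest without CTCF that touched the Cd4 span.

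Of the 30 regions in the Cd4 window, 13 were 500 bp or wider, a count reached by 3.31% of autosomal windows of that length. The side of lower coordinates held 18 and the side of Lag3 held 9. The longest gap in the window, 62.1 kb, lay on the side of Lag3 from 124918246 to 124980370, and 16.9% of autosomal gaps were as long. Here and at the other loci this share refers to single gaps and does not allow for picking the longest in a window. The megabase from 124 to 125 Mb, in which the whole window lies, held 36 regions of at least 425 bp, the median width of the track, and ranked 1 on chromosome 6. The Cd4 window, 33% of that megabase, supplied 14 of them (38.9%).

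Cd8a and Cd8b1 encode the chains of the coreceptor of cytotoxic T cells, which binds MHC class I, and both are known to be silent in DN cells. Their span lies at 71.27 to 71.35 Mb of chromosome 6, and the order of genes is Gm1070, Cd8b1, Cd8a, Rmnd5a. This locus was the plainest of the 6, with 11 well-separated regions and none within 200 bp of another. All 11 were 175 bp or wider, the largest measuring 600 bp (71251946 to 71252545), and 5 reached 500 bp, a count found in 34.3% of windows of this length. On the side of Cd8b1 3 regions of 350, 575 and 600 bp stood 17.8 to 24.4 kb from the span. Inside, 2 regions of 200 bp each lay 25.6 and 29.4 kb from the lower edge (71295521 to 71295720 and 71299296 to 71299495). The last, of 550 bp (71349071 to 71349620), closed the span on the side of Rmnd5a, and the next beyond it stood 23.3 kb outside and also measured 550 bp. The stretch of 49.6 kb between the second inside region and the last held none. The longest gap of the window, 52.8 kb, lay outside the span (71391271 to 71444070), and 19.9% of autosomal gaps were as long. The outermost bands, 100 to 150 kb away, held 0 regions at this locus alone among the 6. Stretches without regions are common, and of 7072 autosomal windows of 340 kb, 1101 held 0.

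The CD3 gamma, delta and epsilon chains carry the signal of both the pre-T cell receptor and the mature receptor, and their genes are known to be active from early DN stages. They lie in the order Ube4a, Cd3g, Cd3d, Cd3e, Mpzl2. The span, at 44.77 to 44.82 Mb of chromosome 9, held more regions than any of the others. This count does not allow for the length of the spans, which ran from 10 to 80 kb. The regions lay in 2 groups with 28.6 kb free between them. The first group had a region of 575 bp (44774801 to 44775375), then one of 100 bp after 2.25 kb and one of 150 bp after a further 0.825 kb. The second group, 37.3 to 37.5 kb from the lower edge, had fragments of 75 and 275 bp separated by 25 bp. Just beyond the upper edge, 0.288 kb (0.2875) outside, a further fragment of 125 bp opened a series that ran through 75 and 575 bp to a region of 575 bp 11.04 kb away. The other side differed, because its nearest region stood 43.2 kb from the span. The 47.9 kb before the first inside region (44726926 to 44774800) was the longest gap of the window, and 21.9% of autosomal gaps were as long. Across the window 11 of 28 regions reached 500 bp, a count found in 6.84% of windows of this length. The largest width, 625 bp, was shared by 5 regions.

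Ptcra encodes the pre-T alpha chain, which pairs with the beta chain at the DN stage and is a hallmark of these cells. It lies between Cnpy3 and 2310039H08Rik. The span of 10 kb, at 46.89 to 46.90 Mb of chromosome 17 and the shortest of the 6, held 1 region of 125 bp (46891752 to 46891876). Flanking sites stood near on both sides, with a region of 650 bp 16.7 kb below the span and one of 425 bp 8.14 kb above it. The upper side opened with a dense run, in which 5 regions between 8.14 and 11.1 kb from the span included the widest of the locus, 700 bp (46910302 to 46911001). In all the upper side held 14 regions and the lower side 8. Of the 23 regions, 7 reached 500 bp, a count found in 16.9% of windows of this length. They made up 30.4% of the regions, and the exact binomial interval of 13.2 to 52.9% included the autosomal share of 46.8%. By this count the locus stood out less than by all its regions, but the contrast depended on the cut. Among regions of at least 425 bp its density was 3.20 times that of the autosomes, against 3.42 times for all regions. The longest gap, 62.6 kb (46923002 to 46985626), lay on the upper side, and 16.7% of autosomal gaps were as long.

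Il7r encodes the alpha chain of the receptor for interleukin 7, the cytokine that keeps DN cells alive. It lies between Capsl and Spef2, at 9.43 to 9.46 Mb of chromosome 15. This was the sparsest locus, with 8 regions in 330 kb. The gene span held a single region of 100 bp, near its upper edge (9459455 to 9459554), 29.5 kb from the lower one. No region of 500 bp or more lay nearer than 44.8 kb on the lower side (600 bp, 9384855 to 9385454, the widest of the locus) or 47.2 kb on the upper side (500 bp). The gap before the inside region measured 74.0 kb and the one after it 47.4 kb. The longest of the window was 88.9 kb (9292780 to 9381704), and 11.3% of autosomal gaps were as long. Of the 8 regions, 3 reached 500 bp, a count found in 46.4% of windows of this length. The median window held 2 of them.

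Rag1 and Rag2 encode the 2 proteins of the recombinase and are transcribed toward each other. Iftap overlaps them in the gene table, and Traf6 is the next gene beyond Rag1. The mice lack a functional Rag1, so any DNA removed from that allele could give no reads, and a region there could not be seen. In the span, at 101.46 to 101.50 Mb of chromosome 2, the 3 regions all lay in the upper part. They measured 325 bp (101486124 to 101486448), 550 bp (101492924 to 101493473) and 325 bp (101495174 to 101495498), at 26.3, 33.2 and 35.3 kb from the lower edge. A region of 600 bp followed 5.62 kb beyond the span and one of 625 bp at 18.5 kb. On the lower side the nearest region, of 325 bp, stood 19.1 kb away, and the nearest of 500 bp or more 76.0 kb away. The stretch of 45.1 kb that ends at the first inside region held none. Regions of 500 bp or more numbered 8 of 16, a count found in 14.4% of windows of this length, and the median width of 500 bp was the highest of the 6 loci. The widest measured 675 bp (101312749 to 101313423), at the far lower end of the window. The longest gap, 80.3 kb (101556274 to 101636573), lay beyond the upper side, and 12.7% of autosomal gaps were as long.

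**Figure D5:**
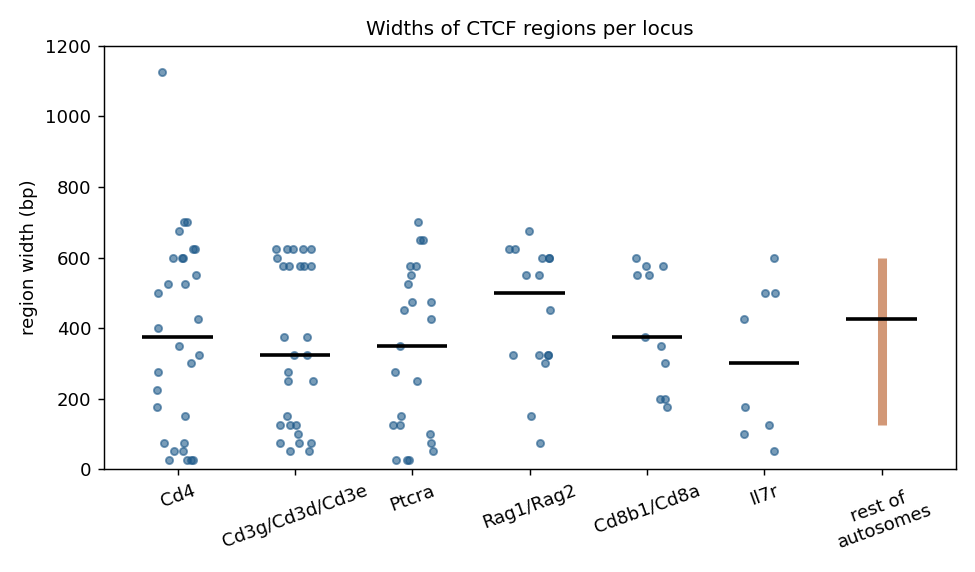
Width of every CTCF region (points, bp) at each locus, with the median as a black bar, beside the median and quartiles (125, 425 and 600 bp) of the rest of chromosomes 1 to 19. Medians run from 300 bp at Il7r to 500 bp at Rag1/Rag2, and the point at 1125 bp belongs to Cd4.

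Set side by side, the spans differed in where the nearest wide region stood on both sides. At Cd4 the distances to a region of 500 bp or more were 0.0925 and 14.0 kb, and at Ptcra 16.7 and 10.7 kb. At the Cd8 genes they were 17.8 and 23.3 kb, and at Il7r 44.8 and 47.2 kb. At the Cd3 genes they were 45.5 and 3.14 kb and at Rag1/Rag2 76.0 and 5.62 kb, shorter on the side of higher coordinates. All these distances count only regions centred outside a span, and the spans are given to 10 kb. At the Cd3 genes a region of 575 bp lay inside, 5.09 kb from the lower edge. At the Cd8 genes one of 550 bp lay inside at the upper edge, 79.3 kb from the lower one. At Rag1/Rag2 one of 550 bp lay inside, 33.2 kb from the lower edge. The distances were not set beside those at other autosomal places, so whether any of them is unusual was not tested. With 1 library, whether these distances recur in other samples was not tested.

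One width recurred at the recombinase genes. Regions of exactly 325 bp, the most frequent width between the narrow and the wide classes of the track, made up 4.95% of all autosomal regions. At the 6 loci 7 of 116 had this width (6.03%, exact binomial 95% interval 2.46 to 12.04%). Of these 7, 4 lay at Rag1/Rag2, where they made up 25% of 16 regions (7.27 to 52.4%). They were both 325-bp regions inside the Rag span and the pair nearest below it (101437349 to 101437673 and 101440699 to 101441023). The Cd3 genes had 2, Cd4 had 1, and the Cd8 genes, Ptcra and Il7r had 0. The region from 101437349 to 101437673 lay 50 bp from a fragment of 75 bp, so joining within 200 bp would change its width. The width of 325 bp was singled out after its values were seen, so no test was run.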

How the data were processed

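CTCF ChIP-seq of DN thymocytes gave 1 track. Per the submitters' processing notes, Bowtie and mm9 were used. How peaks were called and whether the input entered is not given in the sources used here. The deposited values are interval positions with no score, and the input library (0 files) was not analysed. All 825544 bins measured 25 bp.

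Touching bins were joined, and coordinates are printed 1-based. Gene spans, given to 10 kb, came with the choice of genes. Density over chromosomes 1 to 19 was taken between each chromosome's outermost regions. Comparison windows adjoined from the first region. Counts have exact Poisson and shares exact binomial 95% intervals. A ratio's interval came from the binomial share. Counting was checked on simulated regions, recovered at 6 of 6 loci. These were well separated and away from window edges, so closely spaced fragments and edge cases were not checked. Python 3.11.15, numpy 2.4.6, pandas 2.3.3, scipy 1.17.1 and matplotlib 3.10.9 were used.

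The genes, lists and settings were chosen with earlier results of these data known. The 10 genes were named with every region inside a span, the nearest on both sides, the widest and the longest gap. Other positions and the search for motif letters were chosen after values were seen. Neighbouring genes came, by order, from a GRCm38 gene table in which 10 of 10 genes matched.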

Additional observations from a re-analysis of the deposited data

How the results depend on the processing

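For the 4 summed results 44 alternative values were computed. Of these, 39 lay inside the interval of the ratio or share, or changed a count by less than 1.5 times, and 5 moved. The ratio of the loci to the autosomes, 2.62, ran from 2.21 against windows that hold a region to 2.92 without the Cd8 genes, and was 2.32 without Cd4. Requiring at least the median width left 54 of 116 regions, by construction. The share of regions of 500 bp or more, 40.5%, became 54.9% joined within 1000 bp, 50.5% without regions of 100 bp or less and 87.0% at or above the median width, as small regions were merged or removed. The 16 regions inside the spans became 27 when the spans were widened by 10 kb. Single loci were recomputed under 6 settings each, and all 36 density ratios lay inside the interval of their locus. The direction changed in 1 of them. At Il7r the ratio to the rest of the autosomes, 1.12, fell to 0.966 with flanks of 200 kb, inside its interval of 0.483 to 2.20, and the cause was not tested. Cd4 kept 3.34 to 4.41 times, the Cd3 genes 2.84 to 3.74 and Ptcra 3.18 to 3.72 times the autosomal density. Rag1/Rag2 ran from 1.89 to 2.62 times and the Cd8 genes from 1.19 to 1.81 times, the latter highest with flanks of 100 kb. The ranges of these 2 loci thus nearly met. No paired analysis was possible because a single CTCF library was mapped. The depth behind the track is not known, and sites below the authors' threshold cannot be seen.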
